A study of Drosophila melanogaster with 9 samples.

Results

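The genes described here encode the proteins of the mitochondrial ribosome of Drosophila melanogaster. They were chosen by symbol: every gene whose annotated symbol starts with mRpL (large subunit) or mRpS (small subunit), with 1 probe set per gene, the one with the highest mean. This gave 64 genes of the 10845 genes in the table, 43 of the large and 21 of the small subunit. RNA came from whole dechorionated embryos kept at 25 °C for some 9 h, until at least 85% of a collection had reached stages 13 to 14, when the epidermis closes over the dorsal side. The remaining embryos of a collection may have been of other stages. Each of 3 groups had 3 1-colour Affymetrix arrays made from independent RNA samples. GOF embryos (w;UAS-hepACT/+;69B/+) expressed activated Hep, the kinase that activates the JNK Basket, under 69B-GAL4, a driver active in the ectoderm and so in only part of the embryo. LOF embryos (y w heprev75/y w hep1) carried 2 mutant alleles of hep. The sources used here do not say how they were separated from sibling embryos. WT embryos (w) were the reference, and no embryos with the driver alone were among the samples. All 3 groups carried w.

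The mitochondrial ribosome translates the few messages of the mitochondrial genome, which in animals all encode subunits of the respiratory chain and the ATP synthase. Its proteins are encoded in the nucleus, made in the cytosol and imported, and they assemble on ribosomal RNA that is transcribed inside the organelle. Some descend from bacterial ribosomal proteins and keep their numbers, up to L36 and S21. Higher numbers were given to proteins of mitochondrial ribosomes, most but not all of them without a bacterial counterpart. By this numbering 36 of the 64 genes carried a bacterial number and 28 a higher one. Ancestry was not checked gene by gene.

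Values are the deposited linear intensities. Each change is 1 group's mean of log2(value + 1) minus another's, with its standard error (SE) from limma, and a gene is called changed at a Benjamini-Hochberg adjusted p under 0.05 over all 10845 genes. The base that the authors used to return RMA values to a linear scale is not stated. If it was e, to which the range of the values points, each log2 change shrinks by the factor 0.693, and fold changes are therefore given for both bases. A change in a whole-embryo sample may reflect fewer cells of a type or less RNA per cell, which cannot be told apart here.

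Other features of the samples moved with the groups. The probe set of hep read 3403, 3625 and 3099 in GOF, 3315, 3515 and 3653 in LOF and 3567, 2878 and 4044 in WT, and since the sources used here do not place it relative to the transgene and the alleles, it checks nothing about the labels. puc, the phosphatase gene induced by JNK, read 6435, 5278 and 6712 in GOF, 1739, 1813 and 1704 in LOF and 2550, 2016 and 2347 in WT. Over all genes 16.6% rose and 20.1% fell in GOF against WT, and 1.36% rose and 3.37% fell in LOF against WT. Of 12 measured maternal and egg RNAs, 7 rose and 1 fell in GOF and 4 rose in LOF. Their summed intensity was 25290 to 39575 in GOF, 10504 to 12861 in LOF and 10200 to 11014 in WT. Of 11 genes of late epidermal and tracheal differentiation, 10 fell in GOF, with sums of 114923 to 146613 in GOF, 295353 to 363309 in LOF and 293027 to 356818 in WT. In GOF, 3 of 5 germ cell markers rose, while 2 of 4 neuronal, 3 of 4 muscle, 4 of 8 hemocyte and 3 of 6 midgut and fat body markers fell. Summed levels in GOF, LOF and WT were 13635 to 17030, 3562 to 3899 and 2901 to 3486 for germ cells, 10654 to 12625, 22844 to 24956 and 21716 to 25594 for neurons, and 14691 to 40635, 34235 to 37381 and 36952 to 47511 for muscle. They were 18145 to 21595, 44302 to 49133 and 29801 to 35892 for hemocytes, and 33762 to 51637, 62544 to 69010 and 62166 to 73485 for midgut and fat body. In LOF, 2 of the 8 hemocyte markers, 1 of the 5 germ cell markers and 1 of the 4 neuronal markers rose, and none of the listed markers fell. No listed marker read 0 on any array, but the values hold no detection calls, so absence cannot be told. The part of these shifts in the results below was not tested.

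Mitochondrial ribosomal protein genes moved together between arrays of the same group, which bears on every comparison. WT replicate 1 was the highest WT array for 55 of the 64 genes (85.9%, against 35.3% of all genes). LOF replicate 2 was the lowest LOF array for 53 of the 64 (82.8%, against 34.8% of all genes), and LOF replicate 3 the highest for 42 (65.6%, against 31% of all genes). The median deviation of the 64 genes from the mean of their own group was 0.14 on WT replicate 1, -0.15 on LOF replicate 2 and 0.12 on LOF replicate 3 on the log2 scale. On the 3 GOF arrays it lay between -0.03 and 0.04. Subunits of oxidative phosphorylation and cytosolic ribosomal proteins shared the low LOF array: LOF replicate 2 was the lowest of its group for 47 of 69 and for 27 of 37 of them, against 4 of 14 mitochondrial aminoacyl-tRNA synthetase genes. Calls are therefore also given with arrays left out.

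**Figure D1:**
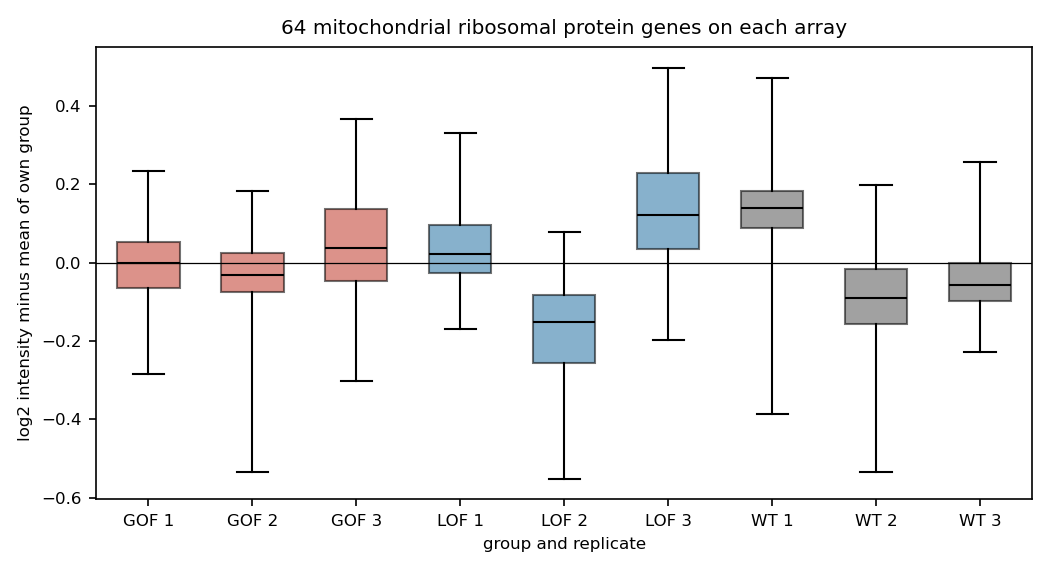
Log2 intensity of the 64 mitochondrial ribosomal protein genes on each array (x axis, group and replicate), minus the mean of the gene over its own group (y axis). Boxes span the quartiles with the median as a line, and whiskers reach the lowest and highest gene. WT replicate 1 (median 0.14) and LOF replicate 3 (0.12) lie above their groups and LOF replicate 2 (-0.15) below, while the GOF arrays lie close together.

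With the deposited scaling, more of the mitochondrial ribosomal protein genes fell than rose in GOF embryos, and most did not pass the threshold. Only the share that fell was above that of all genes. Of the 64 genes, 9 rose and 21 fell in GOF against WT, and 34 did not pass the threshold. Over all genes, 36.7% were called in this comparison, 16.6% up and 20.1% down, against 14.1% up and 32.8% down among the 64. The median log2 change of the 64 genes was -0.16, against -0.03 over all genes. The rises ran from 0.36 to 1.56 and the falls from -0.35 to -0.73, so that 1 gene, mRpS9, was called and at least 2-fold higher and 0 were called and at least 2-fold lower, against 6.44% and 1.82% of all genes. All 3 GOF arrays lay above all 3 WT arrays in 13 of the 64 genes and below them in 28, against 19.6% and 24.9% of all genes. By symbol, of the 43 large subunit genes 3 rose and 15 fell, and of the 21 small subunit genes 6 rose and 6 fell. Genes with a bacterial number rose in 6 of 36 cases and fell in 11, and those with a higher number rose in 3 of 28 and fell in 10. The split between rises and falls depended on the scaling of the arrays, also over all genes, where 1802 rose and 2181 fell as deposited. Cyclic loess gave 14 up and 16 down among the 64, with 2075 and 1751 over all genes. Quantile normalization gave 7 up and 23 down, with 1748 and 2352 over all genes.

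The largest rise was that of mRpS9, the counterpart of bacterial S9, a protein of the head of the small subunit. It read 4499, 4670 and 5408 in GOF, 1257, 1066 and 1119 in LOF and 2008, 1391 and 1595 in WT. All 3 GOF arrays lay above every LOF and WT array, and all 3 LOF arrays lay below the WT arrays. The means were 4859 ± 483 in GOF and 1665 ± 314 in WT (SD, n = 3 each). In limma the log2 change in GOF against WT was 1.56 (SE 0.13, adjusted p = 3.86e-06), or 2.94-fold and, with base e, 2.11-fold.

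mRpS7, whose bacterial counterpart starts the assembly of the head of the small subunit, read 23106, 23310 and 25908 in GOF, 11974, 9615 and 14003 in LOF and 13670, 12361 and 12244 in WT. The GOF arrays stood clear of the others, and the LOF and WT arrays overlapped. Its log2 change in GOF against WT was 0.92 (SE 0.13, adjusted p = 0.000145), 1.89-fold or 1.55-fold with base e. mRpS30 carries a number above those of the bacterial proteins. It read 5510, 6500 and 6806 in GOF, 3490, 3111 and 3470 in LOF and 4035, 3798 and 3690 in WT. Its log2 change in GOF against WT was 0.70 (SE 0.10, adjusted p = 0.000187), and again no GOF array overlapped the other groups. Although named for the small subunit, the mammalian protein of this name sits in the large subunit. All counts by subunit here go by symbol and so place mRpS30 in the small subunit.

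Among large subunit genes, mRpL39, which also carries a number above those of the bacterial proteins, rose most. It read 8057, 8001 and 8684 in GOF, 3333, 2440 and 3149 in LOF and 5147, 4096 and 5229 in WT. The 3 groups did not overlap, with GOF highest and LOF lowest. The log2 change in GOF against WT was 0.78 (SE 0.13, adjusted p = 0.000601), 1.72-fold (1.46-fold with base e).

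Smaller rises were found for 5 more genes. mRpS11, the counterpart of bacterial S11, which lies on the platform of the small subunit, read 16058, 16258 and 15108 in GOF, 9589, 8977 and 8384 in LOF and 12020, 11899 and 10944 in WT (log2 change in GOF against WT 0.44, SE 0.09, adjusted p = 0.00179). mRpL32 of the large subunit read 1175, 986 and 1209 in GOF, 468, 503 and 478 in LOF and 879, 825 and 869 in WT (0.38, SE 0.10, adjusted p = 0.00764). In both genes the GOF arrays lay above, and the LOF arrays below, the WT arrays. mRpS6 (0.45, adjusted p = 0.0416), mRpL11 (0.42, adjusted p = 0.0185) and mRpS24 (0.36, adjusted p = 0.0178) were nearer the threshold. The call of mRpS6 ended in 8 of 21 alternative settings, among them quantile normalization, that of mRpL11 in 4 and that of mRpS24 in 3. mRpL11, whose bacterial counterpart forms the base of the stalk where translation factors bind, has a second, dimmer probe set. That set read 606, 532 and 489 in GOF and 502, 730 and 439 in WT, with a log2 change of -0.01 (SE 0.16, adjusted p = 0.976 over all probe sets), so the 2 sets of mRpL11 disagree.

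**Figure D2:**
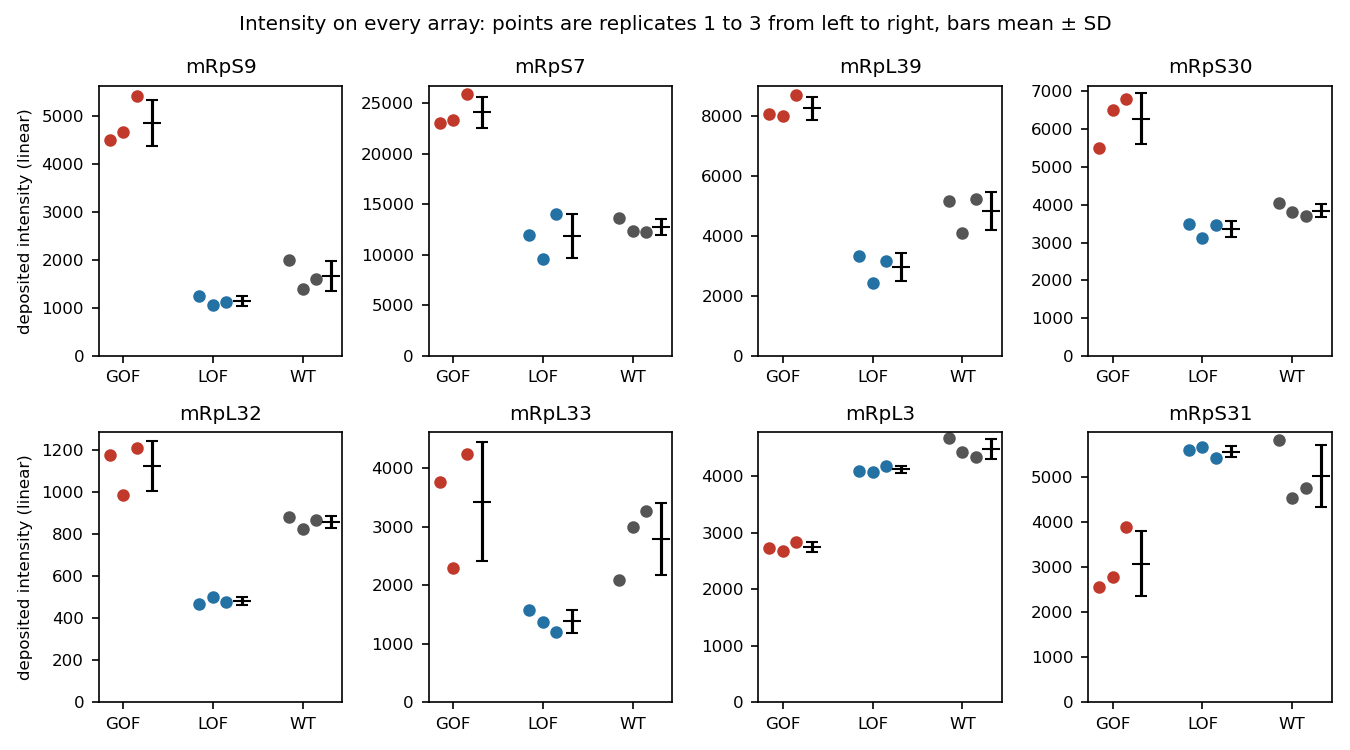
Deposited linear intensity (y axis, from 0) of 8 mitochondrial ribosomal protein genes on every array, by group (x axis). Coloured points are replicates 1 to 3 from left to right, and the black mark beside them is the mean ± SD (n = 3). For mRpS9, mRpL39 and mRpL32 GOF lies above WT and LOF below it without overlap, and for mRpL3 and mRpS31 the GOF arrays are the lowest.

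The falls in GOF were close to each other in size. mRpS31 of the small subunit carries a number above those of the bacterial proteins. It read 2556, 2768 and 3890 in GOF, 5584, 5664 and 5416 in LOF and 5807, 4519 and 4744 in WT. Its log2 change in GOF against WT was -0.73 (SE 0.15, adjusted p = 0.00224). mRpL3, whose bacterial counterpart reaches towards the peptidyl transferase centre and is among the first to bind during assembly, read 2730, 2679 and 2842 in GOF, 4093, 4077 and 4179 in LOF and 4670, 4432 and 4336 in WT (-0.70, SE 0.08, adjusted p = 3.05e-05). It had the smallest within-group spread of the 64 genes, a pooled SD of 0.042 on the log2 scale. For both genes every GOF array lay below every LOF and WT array.

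mRpL48 carries a number above those of the bacterial proteins. It read 875, 879 and 970 in GOF, 1179, 1092 and 1343 in LOF and 1762, 1277 and 1426 in WT. Its log2 change in GOF against WT was -0.70 (SE 0.13, adjusted p = 0.00088). mRpL38, also with a higher number, had a log2 change of -0.69 in GOF against WT (SE 0.14, adjusted p = 0.00227). Its readings were 2439, 2328 and 3441 in GOF, 4215, 4496 and 4773 in LOF and 4851, 3920 and 4359 in WT. In these genes too the GOF arrays were the 3 lowest. mRpS18C, which encodes 1 of 3 mitochondrial relatives of bacterial S18, read 11431, 10205 and 7889 in GOF, 12251, 10524 and 12946 in LOF and 16102, 15887 and 14839 in WT (-0.68, SE 0.13, adjusted p = 0.00163). Its GOF and LOF arrays overlapped, and both groups lay below WT. The other S18 relatives did not pass in GOF against WT: mRpS18A had a log2 change of -0.06 (adjusted p = 0.768) and mRpS18B of -0.11 (adjusted p = 0.435).

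mRpL2, the counterpart of the bacterial protein beside the peptidyl transferase centre, read 4361, 4203 and 4243 in GOF, 6702, 5080 and 5774 in LOF and 7230, 5662 and 5888 in WT (log2 change in GOF against WT -0.54, SE 0.12, adjusted p = 0.00373). Both genes of the stalk, mRpL10 and mRpL12, were lower in GOF, with log2 changes of -0.35 (adjusted p = 0.0124) and -0.58 (adjusted p = 0.0199). mRpL12 read 3008, 3250 and 3601 in GOF, 4487, 3362 and 5775 in LOF and 5689, 4288 and 4850 in WT, so that only GOF and WT were apart. Its dimmer probe set did not pass (-0.20, SE 0.17, adjusted p = 0.415 over all probe sets). mRpL9 fell by 0.60 on the log2 scale (adjusted p = 0.019). Of 21 alternative settings, the call of mRpL9 held in 16 and those of mRpL10 and mRpL12 in 18 each. Among the other falls were mRpL17 and mRpL40 (both -0.57), mRpS35 (-0.50) and mRpL47 (-0.49).

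Leaving out single arrays reduced these calls to a like degree for several arrays. Without WT replicate 1, 9 of the 64 genes rose in GOF against WT and 13 fell, with 22 of the 30 calls kept and 32.5% of all genes called. Without GOF replicate 1, 6 rose and 14 fell, with 20 calls kept and 34.6% of all genes called. Without WT replicate 3 there were 6 rises and 18 falls, with 33% of all genes called. Without GOF replicate 2 there were 8 and 15, with 31.7% of all genes called, and 22 calls were kept each time. Leaving out WT replicate 1 and LOF replicate 2 together gave 11 up and 14 down, with 23 of the 30 calls kept. That setting called 30.7% of all genes, against 36.7% with every array. In 21 alternative settings in all, 6 of the 9 rises (mRpL32, mRpL39, mRpS11, mRpS30, mRpS7 and mRpS9) and 12 of the 21 falls kept their call in every one. Those falls were mRpL2, mRpL3, mRpL17, mRpL20, mRpL38, mRpL40, mRpL47, mRpL48, mRpS2, mRpS18C, mRpS31 and mRpS35. The 34 genes not called had log2 changes between -0.50 and 0.46 with a median SE of 0.12, and 7 of them had an unadjusted p under 0.05.

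In embryos with mutant hep fewer of the genes were called, and all of those fell. In LOF against WT, 7 of the 64 genes fell and 0 rose in limma, at an adjusted p under 0.05, and at an unadjusted p under 0.05 26 were lower and 0 higher, against 10.9% and 8.85% of all genes. Over all genes 4.73% were called, 3.37% lower and 1.36% higher, and the 7 falls are 10.9% of the 64 genes. The median log2 change of the 64 genes was -0.22, against 0.02 over all genes, and 57 of 64 had a negative change. The 7 exceptions, mRpL4, mRpL18, mRpL22, mRpL38, mRpL45, mRpS29 and mRpS31, lay at or below 0.15 and did not pass. By subunit 5 of 43 large and 2 of 21 small subunit genes fell. In 22 of the 64 genes all 3 LOF arrays lay below all 3 WT arrays, and in 0 above, against 12.5% and 13.1% of all genes. None of the 64 was called and at least 2-fold changed, against 0.175% of all genes up and 0.184% down.

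These calls depended on single arrays, whether or not the genes stood apart on them. The calls over all genes, 4.73% with every array, also became fewer, except without GOF replicate 3. The count of falls in LOF against WT was 2 without WT replicate 1 (1.28% of all genes called), 1 without LOF replicate 2 (1.49%) and 1 without both (0.498%). Leaving out LOF replicate 1 gave 3 falls (2.41%), and leaving out either WT replicate 2 (3.35%) or GOF replicate 2 (3.97%) gave 4. Without LOF replicate 3 it was 5 (2.67%), of which 2, mRpL32 and mRpL39, were among the 7, while mRpL14, mRpS17 and mRpS33 were gained. Without GOF replicate 3 it rose to 10 (6.62%), with the 7 kept and mRpL11, mRpL23 and mRpS18C gained. The median log2 change of the 64 genes was -0.09 without both WT replicate 1 and LOF replicate 2.

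mRpL32 kept its call in LOF against WT in all 21 settings. It read 468, 503 and 478 in LOF, as given above, against 879, 825 and 869 in WT, and its log2 change in LOF against WT was -0.83 (SE 0.10, adjusted p = 0.000984). LOF thus stood at 0.564 of the WT level, or at 0.672 with base e. mRpL33, of the large subunit, had the deepest fall, reading 1582, 1374 and 1201 in LOF and 2099, 3000 and 3279 in WT (-0.99, SE 0.22, adjusted p = 0.0284). In GOF it read 3763, 2293 and 4248, overlapping WT (0.28, adjusted p = 0.4). The WT arrays of mRpL33 were widely spread, and its call in LOF against WT ended in 7 of the 21 settings.

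mRpL39 fell in LOF (log2 change against WT -0.70, SE 0.13, adjusted p = 0.0133) and kept this call in 18 of 21 settings. mRpL24 read 3313, 2532 and 2587 in LOF and 4624, 3598 and 4558 in WT (-0.60, SE 0.13, adjusted p = 0.0258), and mRpL15 read 5999, 5221 and 6034 in LOF and 8820, 7774 and 7101 in WT (-0.46, SE 0.12, adjusted p = 0.0478). In GOF these genes of the large subunit overlapped WT, with log2 changes of -0.12 for mRpL24 and -0.09 for mRpL15. mRpS9 (-0.52, SE 0.13, adjusted p = 0.0498) and mRpS11 (-0.37, SE 0.09, adjusted p = 0.0363) also fell, each in 11 of the 21 settings, as did mRpL15.

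Of the 64 genes 4 were thus called in both comparisons against the same WT arrays, and in opposite directions. mRpS9 had log2 changes of 1.56 in GOF and -0.52 in LOF, mRpL39 of 0.78 and -0.70, mRpS11 of 0.44 and -0.37, and mRpL32 of 0.38 and -0.83. Over all genes, 80 of 10845 (0.738%) were called up in GOF and down in LOF. Called in the same direction in both comparisons in limma were 0 of the 64 genes, against 2.31% of all genes, a share too low for that count to set the 64 apart. Since the WT arrays enter both changes, the direct comparison of GOF with LOF gives the difference without them.

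In GOF against LOF, 19 of the 64 genes were higher in GOF and 8 lower, while 37.1% of all genes were called, 17.7% higher and 19.4% lower. Quantile normalization left this comparison at 17 higher and 15 lower, with 1875 higher and 2296 lower over all genes, against 1923 and 2103 as deposited. The median log2 difference of the 64 genes was 0.09, against -0.08 over all genes. The GOF arrays lay above all LOF arrays in 20 of the 64 genes and below them in 14, against 19.9% and 29.6% of all genes. At least 2-fold and called were 5 genes higher and 0 lower in GOF, against 7.49% and 2.31% of all genes. With base e the 5 become 2, mRpS9 (2.72-fold) and mRpL39 (2.04-fold), against 3.53% of all genes. Of the small subunit genes 10 of 21 were higher and 2 lower, and of the large subunit genes 9 of 43 were higher and 6 lower. The largest differences were those of mRpS9 (log2 difference 2.08, SE 0.13, adjusted p = 3.54e-07, 4.23-fold or 2.72-fold with base e), mRpL39 (1.48, SE 0.13, adjusted p = 4.58e-06), mRpL33 (1.27, SE 0.22, adjusted p = 0.000758), mRpL32 (1.21, SE 0.10, adjusted p = 1.85e-06), mRpS7 (1.04, SE 0.13, adjusted p = 5.39e-05) and mRpS30 (0.90, SE 0.10, adjusted p = 2.73e-05).

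Several genes passed in GOF against LOF that passed in neither comparison against WT. mRpS28 read 6973, 6640 and 6620 in GOF, 4660, 4102 and 5066 in LOF and 5606, 5912 and 5757 in WT, so that the 3 groups did not overlap (log2 difference of GOF against LOF 0.55, SE 0.09, adjusted p = 0.000579). mRpS33 read 3951, 4179 and 4148 in GOF and 2160, 1600 and 3118 in LOF (0.89, SE 0.19, adjusted p = 0.00316). mRpS22 (0.54), mRpL42 (0.76) and mRpL36 (0.41) were higher as well. These genes were singled out after their values were seen.

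Lower in GOF than in LOF were mRpS31 (log2 difference -0.88, SE 0.15, adjusted p = 0.000585), mRpL38 (-0.74, SE 0.14, adjusted p = 0.00152), mRpL3 (-0.58, SE 0.08, adjusted p = 0.000116), mRpL2 (-0.45), mRpL48 (-0.40), mRpS35 (-0.37), mRpL47 (-0.36) and mRpL18 (-0.28). Of the 27 calls, 15 of the 19 higher and 4 of the 8 lower ones held in all 21 settings, the 4 being mRpL3, mRpL38, mRpS31 and mRpS35.

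**Figure D3:**
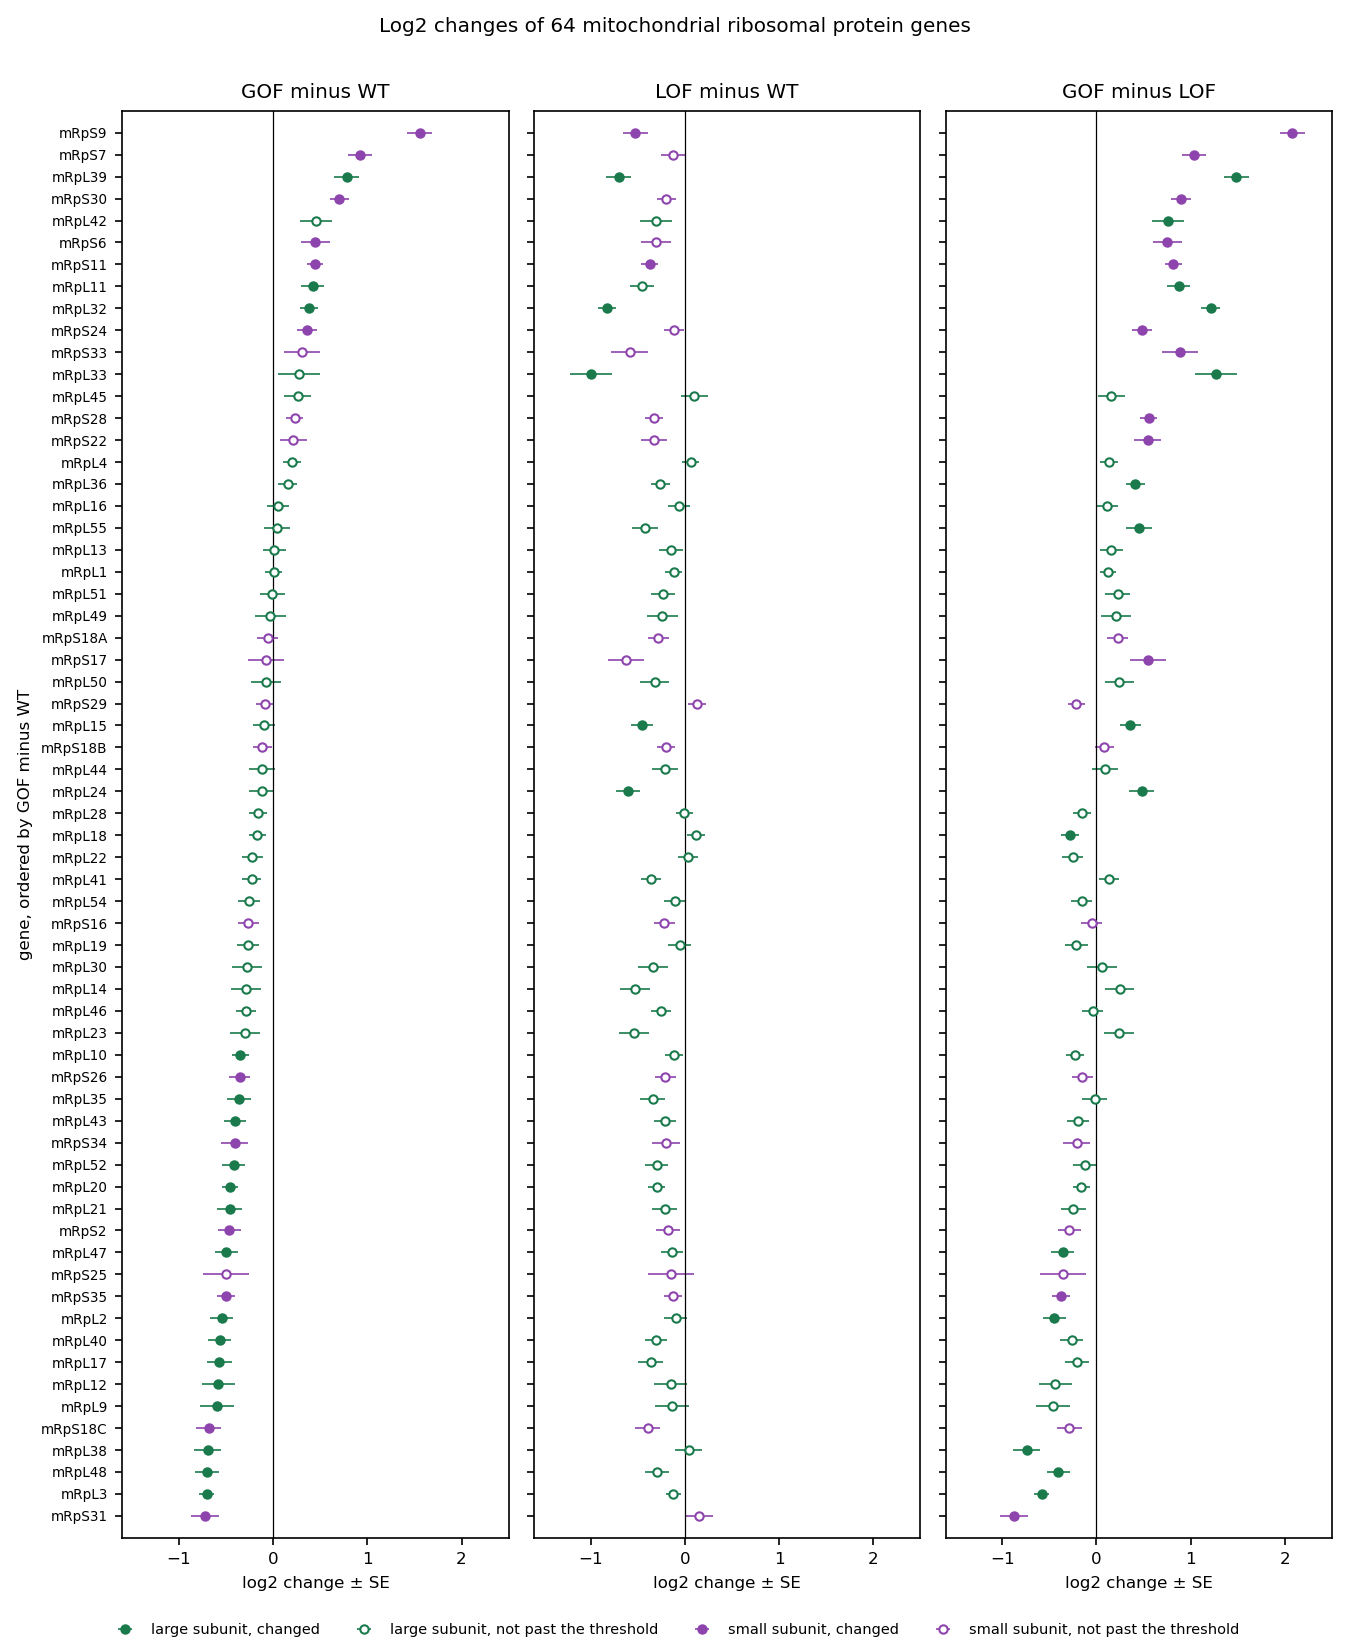
Log2 change with its SE (x axis) of each of the 64 genes (y axis, ordered by GOF minus WT) in GOF minus WT, LOF minus WT and GOF minus LOF. Filled points passed an adjusted p of 0.05 in limma, and green and purple mark the large and small subunit. The first panel runs from mRpS31 (-0.73) to mRpS9 (1.56), and in the second panel 57 of 64 genes lie below 0.

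Both genes for proteins of the small subunit that carry other symbols were also measured. bonsai, the fly gene for mitochondrial S15, read 3767, 3314 and 4144 in GOF, 5379, 4940 and 5592 in LOF and 8847, 6114 and 6703 in WT. The groups did not overlap, with GOF lowest, and the log2 change was -0.94 in GOF against WT (SE 0.14, adjusted p = 0.000211) and -0.43 in LOF against WT (SE 0.14, adjusted p = 0.104). tko (technical knockout), the gene for mitochondrial S12 whose mutants are bang-sensitive, read 940, 1007 and 1132 in GOF, 1200, 846 and 1548 in LOF and 1664, 1148 and 1263 in WT. It passed in neither, at -0.39 (SE 0.20, adjusted p = 0.159) and -0.21 (SE 0.20, adjusted p = 0.609).

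Other parts of the machinery of mitochondrial gene expression also changed in both directions in GOF. Over all genes 16.6% rose and 20.1% fell in this comparison, so change in both directions does not by itself set a list apart. Of 9 translation factor genes 2 rose and 3 fell: the initiation factor gene mIF3 (log2 change in GOF against WT 0.65) and mEFTu2 (0.55) rose, and the elongation factor genes mEFTs (-0.93) and mEFTu1 (-0.61) and bsf (-0.82), which encodes an RNA-binding protein that stabilises mitochondrial messages, fell. mEFG1 alone of these passed in LOF against WT (-0.52, adjusted p = 0.0415). Of 14 mitochondrial aminoacyl-tRNA synthetase genes 3 rose, MetRS-m (0.87), GluRS-m (0.68) and AspRS-m (0.67), and 8 fell, with PheRS-m (-0.97), TyrRS-m (-0.67) and ArgRS-m (-0.38) at the smallest p. Dim genes, among them ArgRS-m (mean 69 in WT) and ValRS-m (48), enter the counts of the 14. In LOF against WT 0 of the 14 passed in limma. At an unadjusted p under 0.05, 2 of the 14 were lower, as were 10.9% of all genes.

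Of 9 genes of the mitochondrial genome and its transcription, 4 rose and 4 fell in GOF, against 16.6% and 20.1% of all genes. TFAM, which packages mitochondrial DNA and starts its transcription, read 14659, 16765 and 14909 in GOF, 11578, 11763 and 11320 in LOF and 8698, 8652 and 8571 in WT. It was the gene of this list that rose in both, by 0.84 (adjusted p = 1.26e-05) in GOF and 0.42 (adjusted p = 0.0178) in LOF. mtTFB2 (0.66), a transcription factor of mitochondrial DNA, and mTTF (0.46), which terminates mitochondrial transcription, rose in GOF. mTerf3, which is needed for assembly of the mitochondrial ribosome in flies and mice, read 193, 192 and 215 in GOF, 178, 183 and 165 in LOF and 943, 882 and 778 in WT. Its log2 changes were -2.11 in GOF against WT (adjusted p = 2.42e-08) and -2.30 in LOF against WT (adjusted p = 2.65e-07), and GOF and LOF did not differ past the threshold (0.19, SE 0.10, adjusted p = 0.165). mTerf5 (-0.61) and mtDNA-helicase (-0.39) fell in GOF.

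In the import machinery, which brings ribosomal proteins into the organelle, 2 of 17 genes rose and 5 fell in GOF. These are 11.8% and 29.4%, against 16.6% and 20.1% of all genes. Dim genes such as Tim13 (mean 79 in WT) and ttm3 (71) enter these counts. The outer membrane receptor gene Tom20 (log2 change 0.77) and the pore gene Tom40 (0.64) rose, whereas mge, the Tom22 gene (-0.81), Roe1, the gene for a GrpE-like partner of mitochondrial Hsp70 (-0.76), and blp, the Pam16 gene (-0.70), fell. In LOF blp was the gene of this list that fell (-0.53, adjusted p = 0.0115). Of 69 nuclear genes of oxidative phosphorylation, 11 rose (15.9%) and 7 fell (10.1%) in GOF, with a median log2 change of -0.01. Both shares were below those of all genes. ND-42 of complex I (0.92), Cyt-c1 of complex III (0.86) and ATPsynO (0.77) rose, and ATPsynbeta (-1.05), ND-51 (-0.70) and ATPsyngamma (-0.69) fell. In LOF against WT 1 of the 69 rose, ND-20L (0.39), and 1 fell, ND-13A (-0.59), against 1.36% and 3.37% of all genes. The list includes dim genes, among them ND-20L (mean 511 in WT, against 16289 for ND-20).

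Of 37 cytosolic ribosomal protein genes 3 rose and 0 fell in GOF against WT in limma, against 16.6% and 20.1% of all genes. At an unadjusted p under 0.05, 6 were higher and 0 lower, against 18.7% and 24.3% of all genes. RpS5b (log2 change 0.61), RpS28b (0.38) and RpL24-like (0.73) rose. RpL24-like, like RpLP0-like and RpL7-like, was taken in by its symbol and is related to ribosomal proteins without being one of the standard set. Dim genes such as RpL10Aa (mean 49 in WT) and RpS28a (346) also enter the counts and the median of the list. The median of this list was 0.20 in GOF against WT and -0.11 in LOF against WT. For the 64 mitochondrial genes these medians were -0.16 and -0.22. In GOF against LOF 15 of the 37 cytosolic genes were higher and 0 lower, against 17.7% and 19.4% of all genes.

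**Figure D4:**
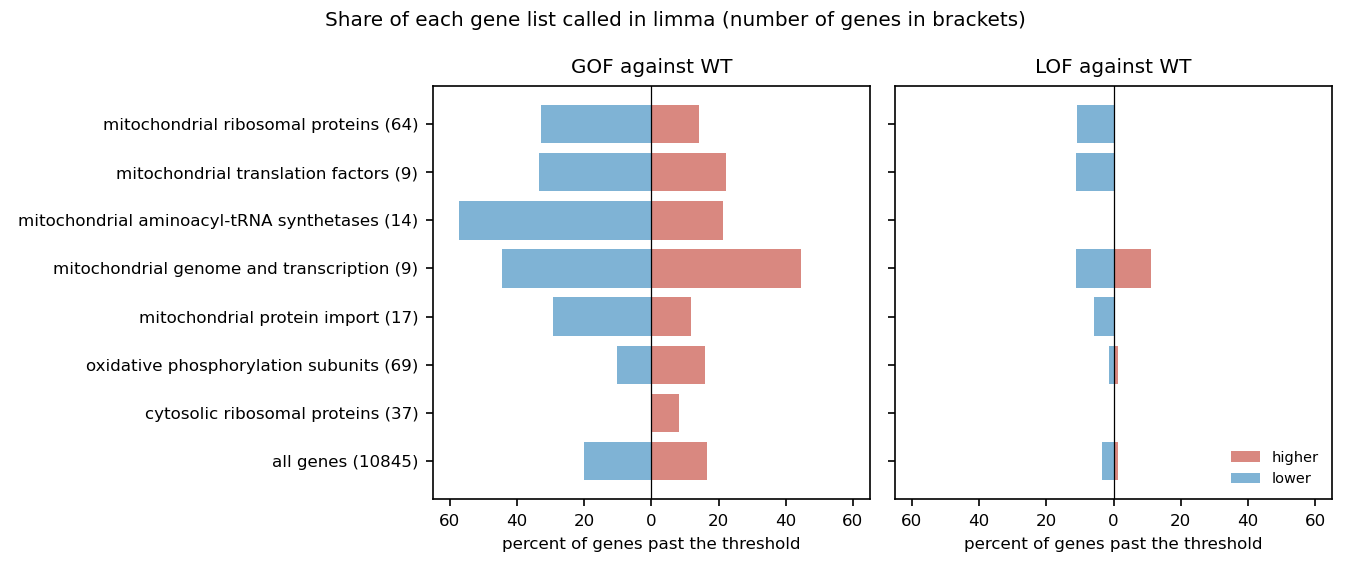
Percent of the genes of each list (rows, number of genes in brackets) past an adjusted p of 0.05 in limma, lower to the left and higher to the right of 0, in GOF against WT and LOF against WT. Of the 64 mitochondrial ribosomal protein genes 32.8% were lower and 14.1% higher in GOF, against 20.1% and 16.6% of all genes, and 10.9% were lower in LOF.

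Of 7 listed regulators of growth and of nuclear genes for mitochondria, 5 were measured and 4 fell in GOF, against 20.1% of all genes. ewg, the fly relative of NRF-1, a mammalian activator of such genes, had a log2 change of -1.14 (adjusted p = 7.74e-06). Ets97D, the relative of the alpha subunit of GABP, another such activator, changed by -0.60 (adjusted p = 0.000194). Mnt and Max, partners in the Myc network, changed by -0.64 and -0.36. In LOF Max alone passed (-0.46, adjusted p = 0.0284). Dref, which binds promoters of growth genes, did not pass in GOF (0.44, adjusted p = 0.0604).

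Many mitochondrial ribosomal protein genes overlap a neighbour: by RefSeq spans 38 of the 64 overlap another gene, 39 such genes in all, of which 36 were measured by a probe set of their own. The sources used here do not give the position and strand of the probes. mRpS9 overlaps ArgRS-m, which fell in GOF (log2 change -0.38), and wtrw, which did not pass (-0.23, adjusted p = 0.104). ArgRS-m was dim, at 57, 52 and 49 in GOF and 66, 70 and 70 in WT. The lowest value on any array was 29. mRpL39 overlaps Zip71B (-0.22, adjusted p = 0.121) and mRpL32 overlaps CG1750 (-0.32, adjusted p = 0.0624), neither of which passed. In 7 of the 36 measured pairs both genes were called in GOF against WT, in opposite directions in 4 and in the same direction in 3. This comparison called 46.9% of the 64 genes and 36.7% of all genes. Whether 7 pairs exceed what these shares give was not tested. Besides mRpS9 and ArgRS-m, the opposite pairs were mRpL43 (-0.40) and sigmar (1.09), mRpL9 (-0.60) and Fkbp39 (0.75), and mRpS2 (-0.46) and CG11927 (0.90). Both genes rose for mRpS24 (0.36) and TBC1d7 (0.94), and both fell for mRpL48 (-0.70) and frtz (-0.44) and for mRpS34 (-0.41) and Golgin104 (-0.49). mRpL30 (-0.28, adjusted p = 0.226) did not pass, whereas Torsin, which it overlaps, rose by 2.28 on the log2 scale. These pairs were picked out after their values were seen.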

How the data were processed

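The authors deposited 1 linear intensity for each probe set on each array, and the submitters' processing notes name RMA. The sources used here do not state its version, its settings or the base used to return to a linear scale. Their natural logarithms ran from 3.37 to 14.1, and 239 of 14010 probe sets passed 65535, the limit of a 16-bit scanner. Array medians were 688 to 709. The platform annotation gave 12443 probe sets 1 gene, 327 several and 1196 none here, and 44 were controls. 1 probe set shared by mRpS10 and another gene was left out. All 64 symbols were current in the RefSeq table (Release 6 plus ISO1 MT).

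Group means of log2(value + 1) over all 10845 genes and 9 arrays were compared in limma 3.58.1 under R 4.3.3 (lmFit, then eBayes with 6 residual degrees of freedom and a prior of 5.39), two-sided, with no filter on low values. The step was tested on simulated data. Named genes were, per comparison, the 6 largest rises and falls called, genes called in both comparisons or with several probe sets, and in other lists the 3 calls with the smallest p per direction; genes named beyond this rule, such as mRpL10, mRpL17, mRpL40, mRpL47, mRpS24 and the S18 relatives, were chosen after their values were seen. Members and lists were chosen with earlier results of these data known. Alternatives covered pseudocount, log base, filter, normalization, probe set, variance model, groups in the fit, replicate block and single arrays. 3 arrays per group limit the precision. No sequences are given, as none were used here.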

Additional observations from a re-analysis of the deposited data

How the results depend on the processing

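Over 20 planned settings and 1 chosen after seeing the data, no called gene changed direction while called, and the counts of calls stayed within 1.5 times except as follows. Falls in LOF against WT (7) numbered 4 with a pseudocount of 64. Rises in GOF against WT (9) numbered 14 after cyclic loess, and falls in GOF against LOF (8) 15 after quantile normalization and 5 after cyclic loess. Over all genes the rises numbered 2075 after cyclic loess, against 1802. The falls numbered 2296 after quantile normalization and 1511 after cyclic loess, against 2103. The cause was not tested. With single arrays left out, GOF against WT had 6 to 10 rises and 13 to 23 falls, LOF against WT 0 rises and 1 to 10 falls, and GOF against LOF 15 to 21 higher and 5 to 10 lower genes. Without both WT replicate 1 and LOF replicate 2, the setting added after seeing the data, LOF against WT had 1 fall and GOF against LOF 12 lower genes. Deviations from the group means gave correlations of mixed sign between same-numbered arrays. They ran from -0.18 to 0.187 across all genes and from -0.308 to 0.378 across the 64. Not every array correlated best with its own number. With 3 arrays per group these values cannot show whether the samples were collected in pairs. With the replicate number as a block, GOF against WT had 8 rises and 21 falls, LOF against WT 6 falls and GOF against LOF 19 higher and 9 lower genes. Taking natural logarithms as the log2 intensity left the counts at the adjusted p as they were, while the genes called and at least 2-fold higher in GOF against LOF went down to 2, against 5. With 3 arrays per group and no detection calls, small changes of dim genes are not resolved.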
